A study of Mus musculus with 30 samples.

Results

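The subject is the response of mouse embryonic stem (ES) cells to 1% oxygen with DAPT, an inhibitor of the enzyme gamma-secretase, given on both sides of the comparison. How far the enzyme was inhibited was not measured: no gene, and none of 15 Notch targets, was called for DAPT itself at either oxygen level, and the labelled dose of 2.5 ng/ml is low for this agent. The 4 samples labelled 1% O2+DAPT were set against the 4 samples labelled DAPT, paired by the replicate number in the labels, which takes 8 of the 28 biological samples of the study (30 arrays, 7 groups). The study compared Notch signaling and low oxygen in the same cells on Illumina BeadChip arrays, each of which gives a fluorescence intensity per probe. Both groups came from the male blastocyst-derived Ainv15 line, grown on gelatin with serum and LIF. In this line, as known of it, a doxycycline-controlled promoter sits at a fixed locus, and neither of the 2 groups received doxycycline. The 1% O2+DAPT cells had 4 hours of DAPT (2.5 ng/ml, the unit as the labels give it) in ES cell medium and then 6 hours of DAPT in serum-free N2B27 medium in a hypoxia workstation at 1% oxygen and 6% CO2. The DAPT cells had the same 4 and 6 hours in an ordinary incubator, also at 6% CO2, for which the labels give no oxygen level. The medium change to N2B27, the pretreatment and the inhibitor are thus shared, and the fold changes set only samples with DAPT against each other. The arrays of all groups were normalized together, however. All 28 biological samples entered the model that gave the standard errors and adjusted p-values. Further contrasts used 4 other groups, each 6 hours in N2B27 and without the 4-hour pretreatment: 1% O2 and N2B27 (no agent), and 1% O2+Dox and Dox (doxycycline at 2 ug/ml; what it switches on is not named in the labels). The replicates are called biological in the labels but are not said to be separate cultures, so a p-value here speaks of the scatter among these samples, some of which can be technical.

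Cells sense oxygen through prolyl hydroxylases that mark the alpha subunits of hypoxia-inducible factors (HIFs) for destruction by the VHL ubiquitin ligase. When oxygen is short, HIF accumulates, binds short sites with the core letters ACGTG and raises genes of glucose uptake, glycolysis, blood supply and its own hydroxylases. Gamma-secretase cuts Notch receptors and frees their intracellular domain, which activates genes such as the Hes and Hey repressors in the nucleus, and DAPT blocks that cut. The question addressed is which genes answer to oxygen when DAPT is present on both sides.

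Low oxygen raised a small group of genes strongly and moved many others slightly. With DAPT present on both sides, 2060 of 9826 genes tested (21.0%) were called at an adjusted p under 0.05, 921 of them higher (9.37%) and 1139 lower (11.6%) in 1% O2+DAPT. The large changes were nearly all upward. There were 96 genes at least 2-fold higher (0.977% of genes tested) and 1 at least 2-fold lower, and 26 were more than 4-fold higher. Most of the calls were small: 667 of the rises and 1074 of the falls were under 1.5-fold, and the median called log2 fold change was 0.39 for rises and -0.30 for falls. In 1860 of the 2060 called genes all 4 pairs moved the same way, which a model that compares within pairs favors. Over all genes tested, 1492 (15.2%) were higher and 1914 (19.5%) lower in all 4 pairs. Every 1% O2+DAPT sample lay above every DAPT sample in 377 genes (3.84%) and below every one in 371 (3.78%).

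These totals, and which direction led, depended on the fit. Without the replicate number in the model, 395 genes (4.02%) were called, 263 higher (2.68%) and 132 lower (1.34%), and all 395 were among the 2060. Scaling the arrays to a common median instead of quantile normalization shifted the fold change of the same genes by a median of -0.11 on the log2 scale, and the split became 560 higher (16.8% of 3332 calls) and 2772 lower, against 44.7% higher in the quantile-normalized values. Rises outnumbered falls when only the 8 samples were fitted (547 higher, 442 lower), with the authors' processed values (945 and 770), and in replicates 1 and 2 alone (601 and 576) or 3 and 4 alone (284 and 149). Small falls are therefore given here as changes relative to the bulk of genes. The arrays measured RNA from whole cultures, so fewer cells that make an RNA and less of it per cell cannot be told apart.

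**Figure D1:**
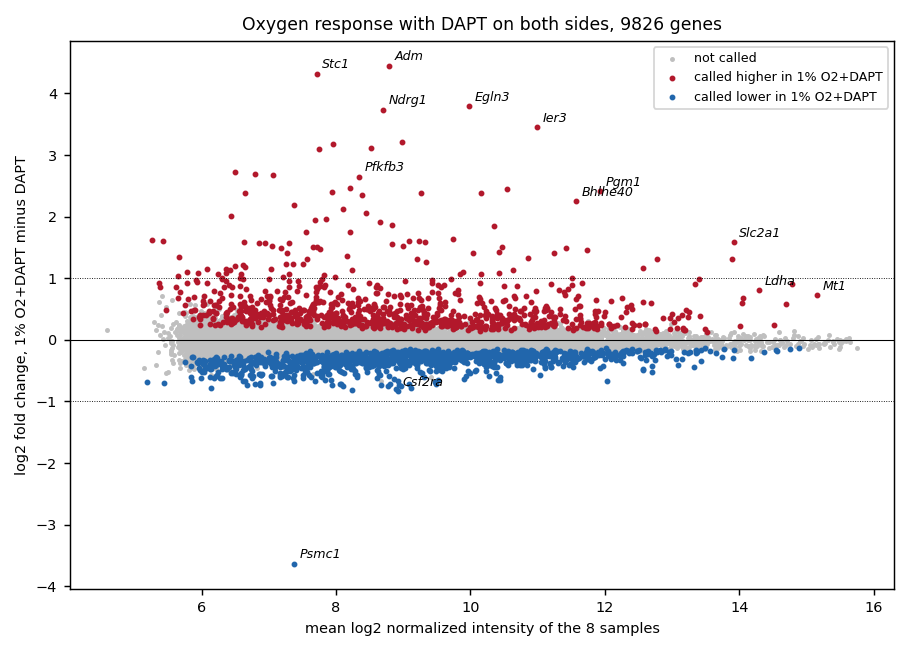
Log2 fold change of 1% O2+DAPT over DAPT (vertical) against the mean log2 normalized intensity of the 8 samples (horizontal), 1 point per gene. Red and blue points are the 921 genes called higher and the 1139 called lower, grey points were not called, and dotted lines mark 2-fold changes. Large changes lie almost wholly above 0 and reach from dim to bright probes; Psmc1 alone lies below the lower line.

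All 9 ES cell markers with a probe were above the background limit on every one of the 8 arrays, and their summed signal was 33818 to 39932 in 1% O2+DAPT and 33608 to 37788 in DAPT. The transcription factor genes Pou5f1 (log2 fold change -0.04 ± 0.07, adjusted p = 0.73), Nanog (0.06 ± 0.07, adjusted p = 0.617) and Sox2 (0.03 ± 0.10, adjusted p = 0.867), which maintain pluripotency, did not pass the test. Esrrb, Zfp42 and Utf1 did not pass it either. The ES cell markers Tdgf1 (0.93, adjusted p = 2e-07), Klf2 (0.71, adjusted p = 1.14e-07) and Klf4 (0.30, adjusted p = 0.00448) were called higher. Markers of other cells were partly present. At background on all 8 arrays were Col1a2, Lum and Postn for fibroblasts, Mixl1, Mesp1 and Kdr for mesoderm, Foxa2 and Afp for endoderm, Elf5 and Hand1 for trophectoderm, and Sox1 and Pax6 for neural cells. Above background on all 8 were Thy1, Vim and Fn1 (fibroblast), Eomes (mesoderm), Gata4, Gata6 and Sox17 (endoderm), Cdx2 and Krt7 (trophectoderm) and Tubb3 (neural). Of these Eomes, Gata6 (0.49, adjusted p = 0.00016) and Sox17 (0.35, adjusted p = 0.029) were called higher and Thy1 lower (-0.44, adjusted p = 0.0123), and Sox17 lost its call in 4 of 8 single omissions.

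The samples of replicate 4 stood slightly apart. Over the 96 genes called at least 2-fold higher, the median difference between 1% O2+DAPT and DAPT was 1.58, 1.58, 1.61 and 1.28 on the log2 scale in pairs 1 to 4, and pair 4 gave the smallest difference in 57 of the 96. The 1% O2+DAPT sample of replicate 4 had the lowest level of its group in 66 of them. The same genes were also least different in pair 4 of 1% O2 against N2B27 (1.37, against 1.53 to 1.70 in pairs 1 to 3) and of 1% O2+Dox against Dox (1.26, against 1.61 to 1.68). Replicates 1 and 2 further differed from 3 and 4 in the level of many genes in every group, and the first principal component, which separates them, held 51.5% of the variance. The model with the replicate number compares within pairs, so a shift in level shared by both samples of a pair cancels.

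The largest rise belonged to Adm, which encodes adrenomedullin, a vasodilator peptide and a classical HIF target. Its log2 level was 10.92, 11.08, 11.45 and 10.60 in 1% O2+DAPT samples 1 to 4, against 6.73, 6.83, 6.49 and 6.19 in DAPT samples 1 to 4. The groups were far apart, and the change was 21.9-fold (log2 fold change 4.45 ± 0.17 SE, adjusted p = 6.8e-15, n = 4 pairs). Stc1, which encodes the secreted glycoprotein stanniocalcin 1, had levels of 10.02, 9.70, 9.98 and 9.79 in 1% O2+DAPT, against 5.68, 6.16, 5.34 and 5.03 in DAPT. None of the 4 DAPT arrays was above background for Stc1, so its rise is at least 12.6-fold (adjusted p = 7.08e-10). Such a bound sets the mean of the bright group against the higher of the background limit and the probe's own value on each dim array.

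Egln3 encodes a prolyl hydroxylase that itself marks HIF for destruction. It stood at 11.99, 11.82, 11.93 and 11.78 in 1% O2+DAPT, against 8.46, 8.72, 7.80 and 7.38 in DAPT, a change of 13.8-fold (3.79 ± 0.18, adjusted p = 1.42e-13). The 1% O2+DAPT samples agreed closely, and the DAPT samples spread more widely. Ndrg1, a stress-response gene, had 11.05, 10.83, 10.81 and 9.59 in 1% O2+DAPT, against 7.18, 6.83, 6.90 and 6.42 in DAPT, a 13.3-fold change (3.74 ± 0.17, adjusted p = 6.81e-14). Replicate 4 was the lowest in both groups for Ndrg1, and its pair difference was 3.17 on the log2 scale. Ier3, an early-response gene, rose by 3.46 ± 0.15 on the log2 scale (adjusted p = 3.16e-14), with levels of 12.22 to 13.03 in 1% O2+DAPT and 8.83 to 9.96 in DAPT.

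Of the 14 largest rises the others were Ankrd37 (log2 fold change 3.21 ± 0.17), Aoc3 (3.17 ± 0.12), Aire (3.11 ± 0.15), Cdc42ep2 (3.10 ± 0.15), Pfkfb3 (2.65 ± 0.08), Prmt8 (2.47 ± 0.13), A2m, Nxph4 and H2-Ab1. Cdc42ep2 was above background on 1 and Prmt8 on 2 of the 4 DAPT arrays, and Adm and Aoc3 on 3, so their folds rest in part on signals near background. Ankrd37 is an ankyrin repeat protein, Aoc3 an amine oxidase of the vessel wall, Cdc42ep2 an effector of the small GTPase Cdc42 and Prmt8 an arginine methyltransferase. Aire, best known as the factor that lets thymic epithelium display tissue antigens, had 9.84, 10.04, 10.23 and 10.17 in 1% O2+DAPT, against 7.04, 7.47, 6.39 and 6.94 in DAPT. A2m (a protease inhibitor), Nxph4 (a secreted neurexophilin) and H2-Ab1 (an MHC class II chain) were at background on all 4 DAPT arrays and rose at least 3.11-fold, 3.79-fold and 4.55-fold. A dimmer probe of H2-Ab1 gave a log2 fold change of 0.84. All 14 rises separated the groups without overlap, and all 14 were also called in the model without the replicate number and in the other 2 oxygen comparisons.

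**Figure D2:**
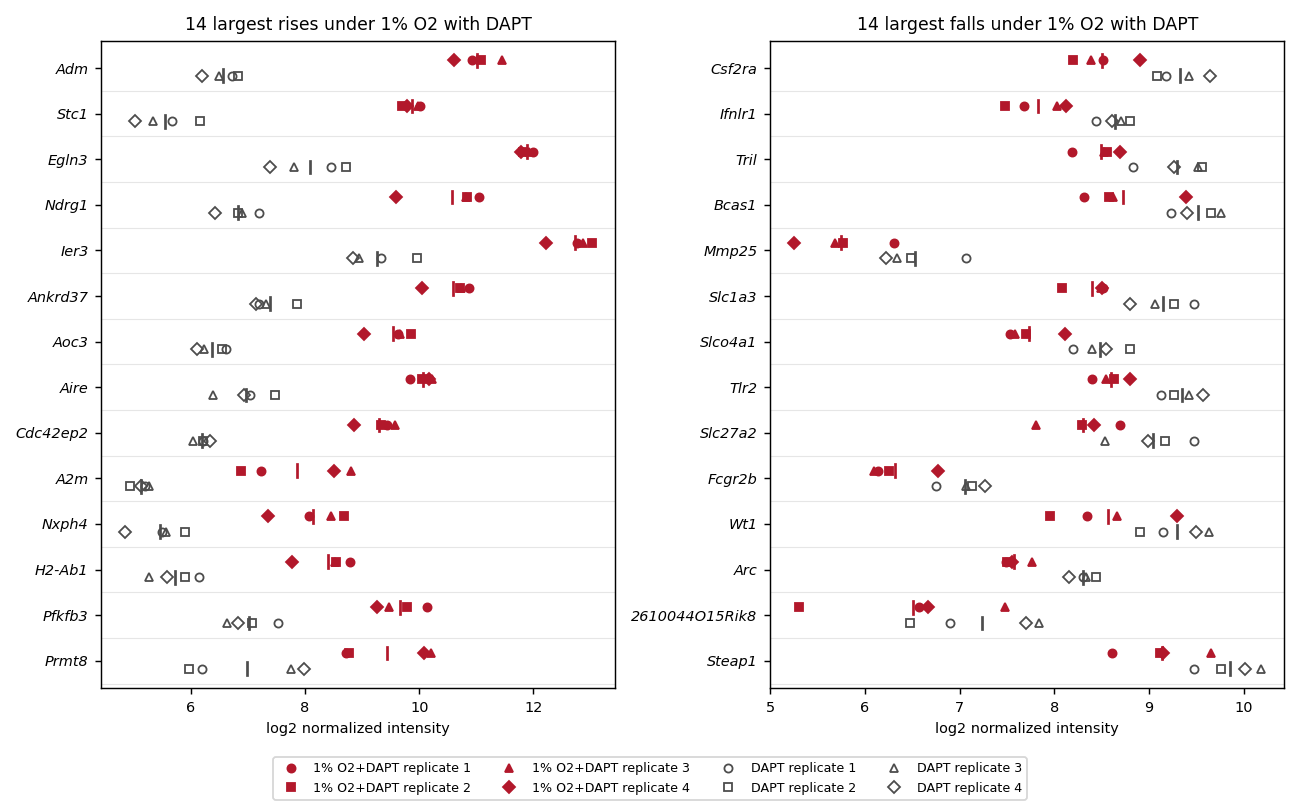
Log2 normalized intensity (horizontal) of the 14 largest rises (left) and the 14 largest falls (right) in each of the 4 1% O2+DAPT samples (filled, upper row of each gene) and the 4 DAPT samples (open, lower row); symbols mark the replicate and vertical ticks the group means. Rises are separated widely, while 7 of the 14 falls overlap between groups. That all 4 pairs move the same way was a condition for naming these genes.

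Sequences just upstream of such genes are of interest because HIF reads the letters ACGTG. RefSeq windows (GRCm38.p6) from 250 bases before to 50 after a start were searched for ACGTG on either strand, which reads CACGT on the other strand and is also part of the E-box CACGTG. The letters were in 19.6% of all 32851 windows. Counted per gene over any of its windows, they were present in 44.6% of the 74 matched genes called at least 2-fold higher, in 34.7% of 737 called higher, in 27.2% of 912 called lower and in 28.2% of 6315 not called. These shares describe letters in a window, not binding. Of the 14 largest rises, 8 matched the table and 4 held the letters, and the window of Adm held none. The 4 are shown with that of Csf2ra, the largest fall that met the naming rule, which holds them as well. Capitals mark ACGTG or CACGT, and each sequence runs 5′ to 3′ along the gene. Egln3 lies at chr12:54203825-54204124 (minus strand), Ier3 at chr17:35821463-35821762 (plus strand), Ankrd37 at chr8:45999801-46000100 (minus strand), Pfkfb3 at chr2:11553880-11554179 (minus strand, 1 of 2 windows of the gene) and Csf2ra at chr19:61228369-61228668 (minus strand).
Egln3: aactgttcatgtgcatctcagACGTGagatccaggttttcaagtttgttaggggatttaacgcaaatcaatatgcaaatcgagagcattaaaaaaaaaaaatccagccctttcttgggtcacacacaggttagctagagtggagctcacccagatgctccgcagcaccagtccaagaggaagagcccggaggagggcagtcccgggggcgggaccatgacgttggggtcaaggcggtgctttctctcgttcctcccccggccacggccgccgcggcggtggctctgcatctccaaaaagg
Ier3: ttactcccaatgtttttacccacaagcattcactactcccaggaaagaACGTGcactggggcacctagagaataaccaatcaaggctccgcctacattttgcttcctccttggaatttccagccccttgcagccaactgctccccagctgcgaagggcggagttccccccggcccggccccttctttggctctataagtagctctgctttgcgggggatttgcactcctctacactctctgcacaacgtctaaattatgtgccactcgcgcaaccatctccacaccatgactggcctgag
Ankrd37: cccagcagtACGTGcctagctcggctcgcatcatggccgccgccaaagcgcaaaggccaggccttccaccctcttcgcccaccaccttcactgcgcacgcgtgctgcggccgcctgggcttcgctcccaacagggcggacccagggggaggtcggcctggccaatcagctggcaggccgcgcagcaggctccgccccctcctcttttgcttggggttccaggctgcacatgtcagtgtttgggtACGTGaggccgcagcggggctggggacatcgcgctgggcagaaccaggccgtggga
Pfkfb3: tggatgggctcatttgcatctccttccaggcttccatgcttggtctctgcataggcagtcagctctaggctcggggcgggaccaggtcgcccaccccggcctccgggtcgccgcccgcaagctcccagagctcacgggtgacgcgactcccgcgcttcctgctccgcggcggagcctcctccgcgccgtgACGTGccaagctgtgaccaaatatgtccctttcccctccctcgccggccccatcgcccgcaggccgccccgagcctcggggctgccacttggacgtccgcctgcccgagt
Csf2ra: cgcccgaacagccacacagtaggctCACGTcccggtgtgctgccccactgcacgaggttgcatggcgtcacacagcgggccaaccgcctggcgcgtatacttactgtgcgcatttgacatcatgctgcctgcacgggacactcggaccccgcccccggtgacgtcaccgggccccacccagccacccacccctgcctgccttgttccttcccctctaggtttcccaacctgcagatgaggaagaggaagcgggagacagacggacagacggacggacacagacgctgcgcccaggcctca
The motif began 229 bases before the start in Egln3, 202 before it in Ier3, 241 and 6 before it in Ankrd37, 60 before it in Pfkfb3 and 225 before it in Csf2ra.

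Many genes that take up and break down glucose rose. Of 25 tested, 15 were called higher and 0 lower (9.37% and 11.6% over all genes tested, the shares beside which each list below is to be read), with a median log2 fold change of 0.60 against -0.02 over all genes tested. Pfkfb3, whose product makes the activator of phosphofructokinase, had 10.14, 9.79, 9.47 and 9.26 in 1% O2+DAPT, against 7.53, 7.07, 6.64 and 6.83 in DAPT (6.26-fold, adjusted p = 3.61e-16). Its 4 pairs were nearly parallel. Slc2a1, the main glucose transporter of most cells, had 14.79, 14.84, 14.79 and 14.43 in 1% O2+DAPT, against 13.27, 13.09, 13.14 and 12.99 in DAPT (3.01-fold, log2 fold change 1.59 ± 0.07, adjusted p = 1.11e-13). Both groups were tight and more than 1 log2 unit lay between their nearest samples.

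Along the glycolytic pathway itself the called members were Aldoc (1.92 ± 0.08), Pfkp, Tpi1, Pfkl, Pgk1, Aldoa and Pkm, all enzymes between glucose and pyruvate, together with the hexokinase Hk2 and the transporter Slc2a3. Ldha, which turns pyruvate into lactate, had 14.76, 14.88, 14.58 and 14.56 in 1% O2+DAPT, against 13.91, 14.06, 13.81 and 13.78 in DAPT (0.80 ± 0.07, adjusted p = 4.3e-09). Pdk1, which holds back the oxidation of pyruvate in mitochondria, rose by 0.64 ± 0.07 (adjusted p = 1.13e-06). Gapdh (-0.12) and the lactate exporter Slc16a3 (-0.21) did not pass the test. Without the replicate number 13 of the 25 were called higher.

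Glycogen enzymes moved alongside. Of 13 tested, 7 rose and 1 fell (median 0.42). Pgm1, which interconverts glucose phosphates on the way into glycogen, had 13.33, 13.20, 13.26 and 12.75 in 1% O2+DAPT, against 10.86, 10.77, 10.77 and 10.51 in DAPT (2.41 ± 0.09, adjusted p = 4.89e-15). Ppp1r3c, a subunit that directs a phosphatase to glycogen, rose by 1.97 ± 0.08 (adjusted p = 9.01e-15). The synthase Gys1 (0.90 ± 0.12, adjusted p = 9.7e-06) and the phosphorylase Pygl (0.79 ± 0.11, adjusted p = 2.4e-05) rose together, so enzymes of both building and breaking glycogen were higher. Pygb, another phosphorylase, fell by 0.23.

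Enzymes that modify collagen and matrix rose in 9 of 13 tested and fell in 0 (median 0.34). The prolyl 4-hydroxylase subunits P4ha1 (2.12 ± 0.16, adjusted p = 5.34e-10) and P4ha2 (1.63 ± 0.13, adjusted p = 3.04e-09), the lysyl oxidases Loxl2 (1.75 ± 0.14, adjusted p = 3.61e-09) and Lox, and the lysyl hydroxylase Plod2 (1.42 ± 0.07, adjusted p = 1.26e-12) led. P4ha2 had 10.79, 10.85 and 10.86 in 1% O2+DAPT samples 1 to 3 and 9.70 in sample 4, against 8.96, 9.11, 8.94 and 8.67 in DAPT. Without sample 4 of 1% O2+DAPT, 7 of the 13 were called higher, and without the replicate number 5 were. P4hb (0.23 ± 0.08, adjusted p = 0.0361) is one of those not called without the replicate number.

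Among the oxygen sensors, 5 of 11 tested rose and 1 fell (median 0.17). Besides Egln3, the hydroxylase Egln1 had 9.99, 9.91, 9.38 and 8.95 in 1% O2+DAPT, against 7.83, 7.36, 6.60 and 7.05 in DAPT (2.35 ± 0.16, adjusted p = 7.42e-11). The third hydroxylase, Egln2, was lower, at 10.24, 9.92, 9.80 and 10.07 in 1% O2+DAPT, against 10.49, 10.59, 10.27 and 10.24 in DAPT (-0.39 ± 0.07, adjusted p = 0.000353). The 2 groups of Egln2 just failed to overlap, and its adjusted p was 0.0932 without the replicate number. Vhl rose by 0.59 ± 0.10 (adjusted p = 0.000225) within pairs, but its levels of 8.30 to 10.07 in 1% O2+DAPT and 7.60 to 9.77 in DAPT overlapped widely, and it was not called without the replicate number (adjusted p = 0.884). No probe of the HIF subunits Hif1a and Epas1 passed the filter on dim probes.

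HIF targets outside glycolysis rose in 23 of 33 tested and fell in 1 (median 1.08), and 19 were called higher without the replicate number. Beyond those described, Ddit4, an inhibitor of mTOR signaling, had 11.57, 11.06, 11.66 and 11.08 in 1% O2+DAPT, against 8.80, 8.89, 9.21 and 8.95 in DAPT (2.38 ± 0.12, adjusted p = 3.99e-13). The lipoprotein receptor gene Vldlr rose by 2.06 ± 0.12 (adjusted p = 1.27e-11), with a second probe at 0.28. Vegfa, the main vessel growth factor, had 11.26, 11.32, 11.50 and 10.44 in 1% O2+DAPT, against 9.68, 9.61, 9.95 and 9.60 in DAPT (1.42 ± 0.11, adjusted p = 1.67e-09), with sample 4 lowest. Bnip3l, a receptor for the removal of mitochondria, rose by 1.14 ± 0.08 (adjusted p = 5.28e-10), and Hmox1, which degrades heme, by 0.60 ± 0.09 (adjusted p = 4.31e-05). Car9, often used as a hypoxia marker, stood at 6.17 to 6.71 in 1% O2+DAPT and 6.01 to 6.43 in DAPT and missed the threshold (0.30 ± 0.12, adjusted p = 0.0714). Rbpj, the DNA-binding partner of Notch, was the single member called lower (-0.36).

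Nuclear-encoded respiratory chain subunits stayed near the median of all genes. Of 55 tested, 2 were called higher and 0 lower, with a median log2 fold change of 0.02, which became -0.12 with 12 called lower under median scaling. The 2 were Ndufv3, a complex I subunit (0.40 ± 0.07, adjusted p = 0.000162), and Cox4i2, the hypoxia-linked form of a cytochrome oxidase subunit (0.39 ± 0.12, adjusted p = 0.0222). Neither was called without the replicate number, and Cox4i2 was lost in 3 of the 8 fits that left out 1 sample. Replication genes (0 of 18 higher, 1 lower) and mitosis genes (1 of 13 higher, 1 lower) also moved little: the cyclin Ccne1 differed by -0.31 ± 0.07 (adjusted p = 0.00332) and the mitotic activator Cdc20 by -0.23 ± 0.06 (adjusted p = 0.00604).

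**Figure D3:**
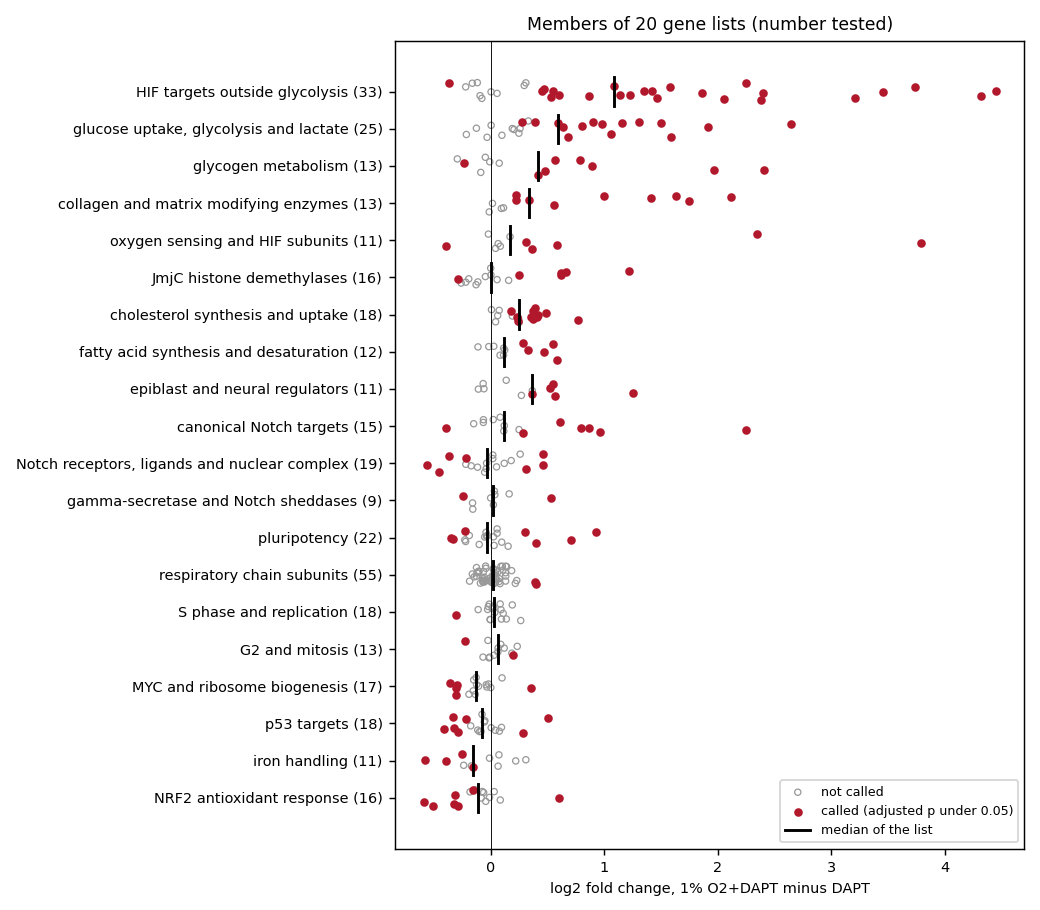
Log2 fold change of 1% O2+DAPT over DAPT (horizontal) for the tested members of 20 gene lists, with the number tested in brackets. Filled red points were called, open points were not, and black bars are medians; HIF targets, glycolysis, glycogen and collagen enzymes extend to the right, and respiratory chain subunits cluster around 0.

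Histone demethylases of the JmjC family need oxygen for catalysis. Of 16 tested, 5 rose and 1 fell (31.2% and 6.25%, against 9.37% and 11.6% over all genes; median 0.00, and -0.06 under median scaling), and 2 were called without the replicate number. Kdm5b, which removes marks of active promoters, had 10.56, 10.23, 10.55 and 10.55 in 1% O2+DAPT, against 9.82, 9.61, 9.89 and 9.91 in DAPT (0.66 ± 0.06, adjusted p = 1.3e-08). Kdm4b rose by 1.22 ± 0.12 (adjusted p = 7.14e-08) on its brightest probe, while a second probe gave -0.48, so the gene's direction rests on the probe. Kdm4c rose by 0.62 ± 0.08 (adjusted p = 5.59e-06) within pairs only.

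Sterol synthesis genes shifted slightly upward. Of 18 tested, 11 were called higher and 0 lower, and all 18 had a positive fold change (median 0.25), but only 2 were called without the replicate number and 4 under median scaling. Stard4, a cholesterol carrier, had 12.11, 11.91, 11.84 and 11.24 in 1% O2+DAPT, against 11.16, 10.85, 11.28 and 10.73 in DAPT (0.77 ± 0.11, adjusted p = 1.05e-05), and the groups overlapped by 1 pair of samples. The oxygen-consuming enzyme Msmo1 rose by 0.49 ± 0.09 (adjusted p = 0.000359) and Lss, which closes the sterol rings, by 0.42 ± 0.07 (adjusted p = 0.000188). Of 12 fatty acid genes 5 rose, led by the desaturases Scd2 (0.58 ± 0.06, adjusted p = 4.05e-07) and Fads2 (0.55 ± 0.09, adjusted p = 0.000187), and none of the 5 was called without the replicate number. That list's median was 0.12, and -0.01 under median scaling.

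Falls were modest in size. The 14 largest that met the naming rule ranged from 1.65-fold to 1.78-fold, 7 of them were called without the replicate number, and 7 showed no overlap between groups. Csf2ra, the alpha chain of the GM-CSF receptor, had 8.52, 8.19, 8.38 and 8.91 in 1% O2+DAPT, against 9.18, 9.09, 9.42 and 9.64 in DAPT (-0.83 ± 0.09, adjusted p = 2.62e-07). Tlr2, a sensor of bacterial lipoproteins, had 8.40, 8.64, 8.55 and 8.80 in 1% O2+DAPT, against 9.13, 9.26, 9.42 and 9.57 in DAPT (-0.75 ± 0.07, adjusted p = 1.15e-08). In both genes all 4 low-oxygen samples lay below all 4 others. Tril, a partner of Toll-like receptors, fell by 0.80 ± 0.08 (adjusted p = 2.27e-07). The interferon lambda receptor Ifnlr1 fell by 0.81 ± 0.11 (adjusted p = 8.93e-06), with a second probe at -0.05. The inhibitory antibody receptor Fcgr2b fell by 0.74 ± 0.11 (adjusted p = 4.78e-05) and was above background on 1 of 4 arrays under low oxygen.

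Other named falls came from membrane transport and from the nucleus. The glutamate transporter Slc1a3 (-0.76 ± 0.21, adjusted p = 0.0131) lost its call in 2 of the 8 fits without 1 sample, with an adjusted p of up to 0.0693. Slco4a1, an organic anion transporter (-0.75 ± 0.18, adjusted p = 0.00426), and Slc27a2, which takes up fatty acids (-0.74 ± 0.10, adjusted p = 1.4e-05), were not called without the replicate number. The activity-regulated gene Arc had 7.49, 7.50, 7.76 and 7.56 in 1% O2+DAPT, against 8.30, 8.44, 8.33 and 8.15 in DAPT (-0.73 ± 0.10, adjusted p = 5.59e-06) and was called in either model. Wt1, a zinc finger factor (-0.73 ± 0.10, adjusted p = 1.32e-05), Bcas1 (-0.79 ± 0.15), Mmp25, a membrane-anchored protease (-0.78 ± 0.13), Steap1 (-0.72 ± 0.09) and 2610044O15Rik8 (-0.73 ± 0.24, adjusted p = 0.0336) were called within pairs only, and the last lost its call in 6 of 8 single omissions. Mmp25 was above background on 1 of 4 arrays in 1% O2+DAPT. Of the 14 falls, 13 were also called in each of the other 2 oxygen comparisons, the exception in both being 2610044O15Rik8.

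The only called fall above 2-fold, Psmc1, a proteasome ATPase subunit, is named because of its values and did not meet the naming rule. It had 4.92, 5.78, 5.59 and 5.96 in 1% O2+DAPT, against 10.33, 10.56, 10.36 and 5.53 in DAPT. The probe was at background on all 4 low-oxygen arrays, and DAPT sample 4 was as low as they were, so the fall was seen in 3 of 4 pairs. Between the group means it was at least 7.93-fold (log2 fold change -3.63 ± 1.04, adjusted p = 0.0153, and 0.220 without the replicate number). In 1% O2 against N2B27 Psmc1 was also called lower (adjusted p = 0.0450). There 1% O2 samples had 5.40, 4.77, 5.81 and 5.27, against 10.52, 10.87, 5.66 and 6.23 in N2B27. The large falls there were thus in pairs 1 and 2. In 1% O2+Dox against Dox Psmc1 was not called (adjusted p = 0.583). There 1% O2+Dox samples had 10.57, 10.82, 10.16 and 5.47, against 10.42, 10.37, 7.18 and 5.24 in Dox. ES cells kept in ES cell medium had 10.05, 10.32, 5.01 and 5.80. The probe thus read either high or near background within several groups, also in samples not labelled 1% oxygen, and the cause was not tested.

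Antioxidant genes of the NRF2 response were among the lists with more falls than rises: of 16 tested, 1 rose and 6 fell (median -0.11), and 1 and 2 were called without the replicate number. Cbr3, a carbonyl reductase, had 9.82, 9.76, 9.42 and 9.58 in 1% O2+DAPT, against 10.41, 10.33, 10.07 and 10.10 in DAPT (-0.59 ± 0.07, adjusted p = 2.94e-06). Srxn1, which repairs peroxiredoxins, had 9.97, 10.03, 9.86 and 10.02 in 1% O2+DAPT, against 10.47, 10.50, 10.52 and 10.42 in DAPT (-0.51 ± 0.06, adjusted p = 3.52e-06). Neither gene showed overlap. The only member that rose was Hmox1, which is also a HIF target. Of 11 iron genes, 0 rose and 4 fell (36.4%, against 11.6% over all genes), and 2 rose and 4 fell without 1% O2+DAPT sample 4. The ferritin gene Fth1, 1 of the 4, lost its call in 4 of 8 single omissions. Named members were the mitochondrial iron importers Slc25a37 (-0.58 ± 0.12, adjusted p = 0.000954) and Slc25a28 (-0.39 ± 0.06, adjusted p = 0.000112). Fbxl5, an iron-sensing ligase subunit, was lower on its brightest probe (-0.25 ± 0.06, adjusted p = 0.00497) and higher on a second probe (0.37). The zinc-binding metallothioneins Mt1 (0.72 ± 0.07, adjusted p = 1.59e-07) and Mt2 (0.72 ± 0.10, adjusted p = 1.74e-05) rose by equal amounts.

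Of 22 pluripotency genes, 4 rose and 3 fell (18.2% and 13.6%, against 9.37% and 11.6% over all genes, with a median of -0.03), and 2 rose and 7 fell under median scaling. Klf2, a naive-state factor, had 11.42, 11.15, 11.12 and 11.01 in 1% O2+DAPT, against 10.80, 10.37, 10.49 and 10.20 in DAPT (0.71 ± 0.07, adjusted p = 1.14e-07). Tdgf1, a Nodal co-receptor, rose by 0.93 ± 0.10 within pairs (adjusted p = 2e-07), although replicates 3 and 4 were higher than 1 and 2 in both groups and no call was made without the replicate number. Dppa4 fell by 0.35 ± 0.06 (adjusted p = 0.000147). Among 11 epiblast and neural regulators, 5 rose and 0 fell (median 0.36), 2 of them called without the replicate number. Otx2, a factor of the primed epiblast and forebrain, had 9.62, 9.94, 10.23 and 10.11 in 1% O2+DAPT, against 8.53, 8.63, 8.71 and 8.98 in DAPT (2.39-fold, log2 fold change 1.26 ± 0.11, adjusted p = 8.11e-09). The groups did not overlap. Hes6 rose by 0.57 ± 0.08 (adjusted p = 3.11e-05) and Pou3f1 by 0.55 ± 0.10 (adjusted p = 0.000249).

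Signals that act on ES cells showed single genes rather than whole lists. The Wnt target Lef1 rose by 1.15 ± 0.09 (adjusted p = 1.1e-09), with 3 of 10 tested Wnt targets higher and 0 lower. The homeobox gene Dlx3, listed under BMP, had 8.93, 8.94, 8.95 and 7.84 in 1% O2+DAPT, against 6.74, 6.80, 6.70 and 6.62 in DAPT (1.95 ± 0.17, adjusted p = 9.26e-09). None of the tested Id genes, the direct BMP targets, was called. Fos, an immediate early gene, rose by 1.53 ± 0.14 (adjusted p = 2.01e-08) with 2 of 4 DAPT arrays above background, while Junb fell by 0.37 ± 0.07 (adjusted p = 0.000383) and Socs2, a LIF feedback gene, by 0.52 ± 0.08 (adjusted p = 3.64e-05). The mesendoderm factor Eomes rose by 0.88 ± 0.10 (adjusted p = 6.56e-07). The summed signal of mesoderm markers, which include Eomes, was 306 to 514 in 1% O2+DAPT and 222 to 313 in DAPT, with Mixl1, Mesp1 and Kdr at background in both, and the part of other cells in this rise was not tested.

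With DAPT on both sides, some Notch target genes differed between the oxygen levels and others did not pass the test. Of 15 canonical targets tested, 6 were called higher and 1, the blood and trophoblast factor Gata3, lower (median 0.12, against -0.02 over all genes), and 5 were called higher without the replicate number. Gata3 lost its call in 4 of 8 single omissions, with an adjusted p of up to 0.0954 (without 1% O2+DAPT sample 4), and was above background on 1 of 4 low-oxygen arrays. The largest, Bhlhe40, is also a HIF target and had 12.79, 12.43, 13.00 and 12.57 in 1% O2+DAPT, against 10.67, 10.36, 10.64 and 10.11 in DAPT (2.25 ± 0.09, adjusted p = 4.89e-15). Hey1, a repressor that Notch induces, had 7.48, 7.63, 7.70 and 7.28 in 1% O2+DAPT, against 6.89, 6.85, 6.82 and 6.34 in DAPT (0.80 ± 0.16, adjusted p = 0.000987). Its groups did not overlap, and the call was kept without the replicate number (adjusted p = 0.0316).

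Efna1, which encodes the membrane ligand ephrin A1, had 7.34 to 8.01 in 1% O2+DAPT, against 6.47 to 7.23 in DAPT (0.96 ± 0.12, adjusted p = 3.03e-06). Sox9, a factor of stem and progenitor cells, had 8.54, 8.21, 8.06 and 7.73 in 1% O2+DAPT, against 7.37, 7.16, 7.40 and 7.14 in DAPT (0.86 ± 0.14, adjusted p = 0.000112). In both genes every low-oxygen sample was above every other one. Other direct targets did not pass the test. Hes1 had 9.69, 9.86, 9.50 and 9.33 in 1% O2+DAPT, against 9.67, 9.62, 9.45 and 9.17 in DAPT (0.12 ± 0.08, adjusted p = 0.327). The feedback inhibitor Nrarp had 7.72 to 8.28 in 1% O2+DAPT and 7.64 to 7.99 in DAPT (0.25 ± 0.19, adjusted p = 0.376). Hes5 was above background on 1 of 4 arrays in 1% O2+DAPT and 0 of 4 in DAPT, so no fold change is given.

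Of 19 receptors, ligands and nuclear partners of Notch, 3 rose and 4 fell within pairs, and 0 were called without the replicate number. Notch1, the receptor, had 8.81, 8.91, 9.16 and 9.07 in 1% O2+DAPT, against 9.16, 9.28, 9.62 and 9.69 in DAPT (-0.45 ± 0.08, adjusted p = 0.000147). Notch4 rose by 0.47 ± 0.10 (adjusted p = 0.00177), with a second probe at -0.16, and the coactivator Maml1 by 0.46 ± 0.07 (adjusted p = 1.74e-05). Mfng, a sugar transferase acting on Notch, was lower by -0.56 ± 0.18 (adjusted p = 0.0329) and lost its call in 7 of 8 single omissions. Of 9 genes for gamma-secretase and related cutting enzymes, 1 rose and 1 fell (11.1% each), near the 9.37% and 11.6% over all genes. Without the replicate number 0 were called. Within pairs Psenen, a subunit of the inhibited enzyme, fell by 0.24 ± 0.05 (adjusted p = 0.00171) and Bsg rose by 0.53 ± 0.08 (adjusted p = 3.82e-05).

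**Figure D4:**
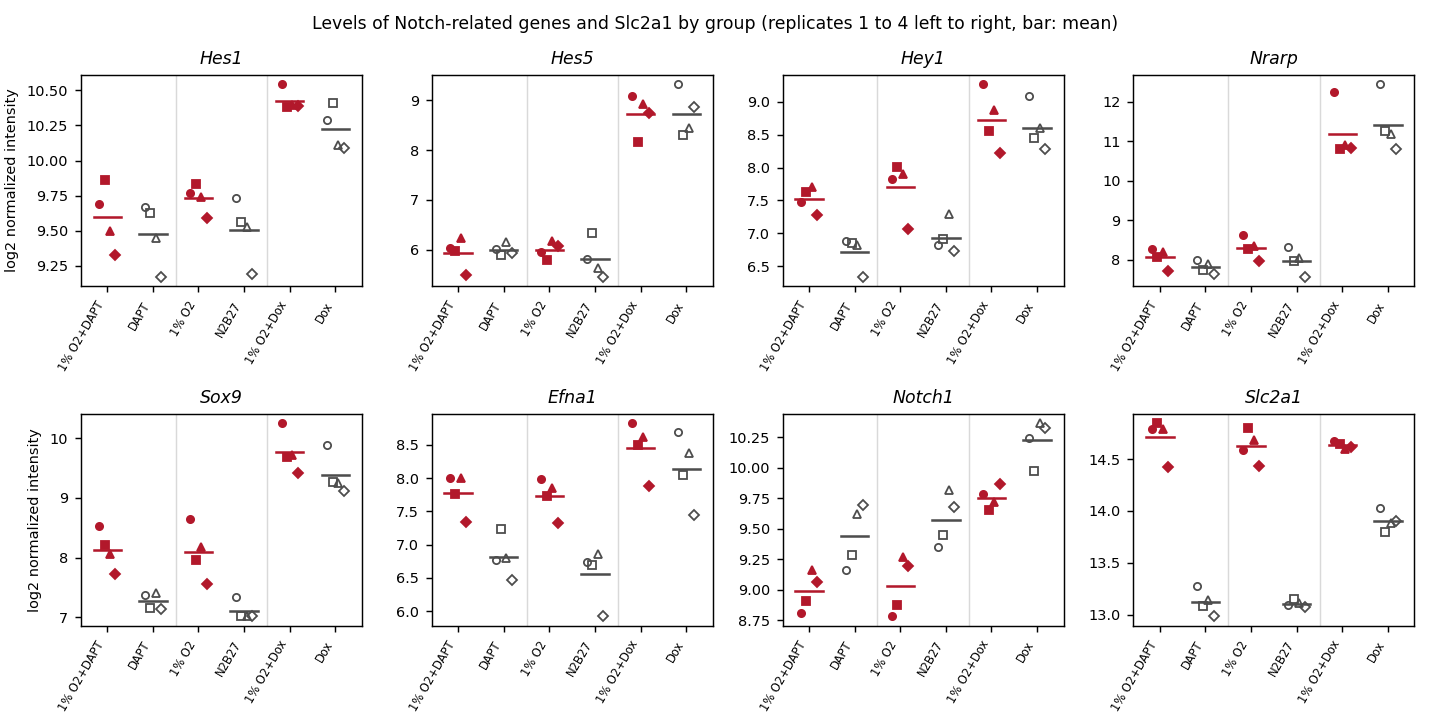
Log2 normalized intensity (vertical) of 7 Notch-related genes and Slc2a1 in each replicate of 6 groups, each low-oxygen group (filled red) left of its counterpart (open grey), with bars at the means; axes start above 0 and differ between panels. Hey1, Sox9 and Efna1 are higher under low oxygen in the DAPT and untreated pairs, and the doxycycline pair starts from higher levels.

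The same contrast was then made in cells without DAPT. The 2 comparisons share no samples, although their replicate numbers match. Of the 2060 genes called with DAPT, 1337 (64.9%) were also called in the same direction in 1% O2 against N2B27, which is 68.3% of the 1958 called there (19.9% of genes tested). Over all 9826 genes the log2 fold changes correlated with r = 0.87, a description across genes, which are not independent. Over the 97 genes called at least 2-fold with DAPT, the slope of the effect without DAPT on that with DAPT was 1.00. A test of the difference between the oxygen effects called 0 genes, with 420 (4.27%) at an unadjusted p under 0.05 and 58 (0.590%) in the model without the replicate number. The typical 95% interval of such a difference was ± 0.25 on the log2 scale, and after adjustment over all genes differences well above that size were not called.

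Of the 14 largest rises, 6 were above background on every array of the 4 groups. For these the difference between the oxygen effect with and without DAPT ran from -0.13 for Pfkfb3 to -0.04 for Ankrd37, and each 95% interval included 0. Adm, above background on 3 of 4 DAPT and 3 of 4 N2B27 arrays, changed by 4.45 with DAPT and 4.60 without (difference -0.15, 95% interval -0.65 to 0.36). Among the Notch targets that rose under DAPT, without it Hey1 rose by 0.76 (difference 0.04, interval -0.44 to 0.51), Sox9 by 0.99 (difference -0.12, interval -0.54 to 0.29) and Efna1 by 1.17 (difference -0.21, interval -0.56 to 0.14). These 3 had been chosen for their rise with DAPT. Of all 15 canonical targets, 7 were called higher and 0 lower without DAPT (median 0.23), against 6 and 1 with it (median 0.12). The median difference over the 15 was -0.10, and 0 differences were called. Hes1 was called without DAPT (0.23, adjusted p = 0.0431) and not with it (0.12), and the difference of -0.11 (interval -0.35 to 0.12) was not called. The gene nearest the threshold was Kdm4a, a JmjC demethylase (difference -0.70 ± 0.13, adjusted p = 0.146), which was called only when 1% O2 replicate 4 was left out (adjusted p = 0.0496).

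Against doxycycline-treated cells, 1301 of the genes called with DAPT (63.2%, and 68.2% of the 1908 called there, 19.4% of genes tested) were called in the same direction, with r = 0.86 over all genes. The difference was called for 1 gene of 9826 (0.0102%), Slc2a1, and 464 (4.72%) had an unadjusted p under 0.05 (68, or 0.692%, without the replicate number). Its levels in 1% O2+Dox were 14.67, 14.64, 14.60 and 14.62, against 14.03, 13.80, 13.89 and 13.91 in Dox, a rise of 0.73, against 1.59 with DAPT (difference 0.86 ± 0.10, adjusted p = 0.000233). The low-oxygen levels were alike and the Dox samples started higher than the DAPT samples. Fitted on replicates 1 and 2 alone the difference was 0.89 (adjusted p = 0.409) and on 3 and 4 alone 0.83 (adjusted p = 0.962), so neither pair of replicates sufficed for a call, while each fit that left out 1 sample made it. Efna1 (0.96 with DAPT, 0.31 with doxycycline, difference 0.65, interval 0.29 to 1.00, adjusted p = 0.571), Hey1 (0.80 and 0.12, difference 0.68, interval 0.20 to 1.15, adjusted p = 0.827) and Sox9 (0.86 and 0.39, difference 0.48, interval 0.06 to 0.89, adjusted p = 0.996) pointed the same way but did not pass the test over all genes. The canonical Notch targets did not do so as a list: over the 15 tested the median difference was -0.03, and 0 were called. Hes1 differed by -0.09 (interval -0.32 to 0.15) and Nrarp by 0.49 (interval -0.06 to 1.03).

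**Figure D5:**
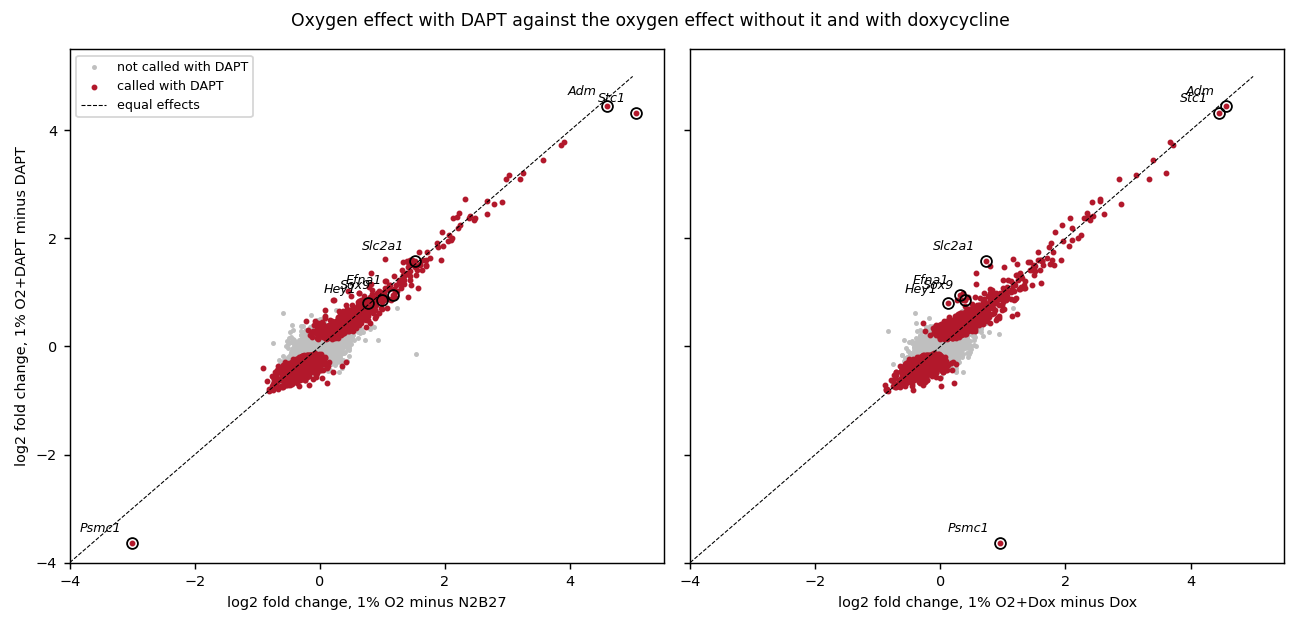
Log2 fold change of 1% O2+DAPT over DAPT (vertical) against that of 1% O2 over N2B27 (left) and of 1% O2+Dox over Dox (right), 1 point per gene, red where called with DAPT; the dashed line marks equal effects. Points follow the line in both panels, and circled Slc2a1, Efna1, Hey1 and Sox9 lie above it in the right panel.

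In all 3 settings 1081 genes were called in the same direction, 52.5% of those called with DAPT, 571 of them higher and 510 lower. Of the 97 genes changed at least 2-fold with DAPT, 93 belonged to that set, and the other 4 were Asic2, Epo, Fezf2 and Psmc1.

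The inhibitor's own effect was measured by the same model, with the pretreatment as part of it. In 1% O2+DAPT against 1% O2, 0 genes were called (595, or 6.06%, at an unadjusted p under 0.05 in limma), and in DAPT against N2B27 0 were called (564, or 5.74%). Without the replicate number those counts at an unadjusted p were 105 (1.07%) and 82 (0.835%). None of the 15 canonical Notch targets was called in either contrast: Hes1 differed by -0.14 ± 0.08 (adjusted p = 0.864) under low oxygen and by -0.03 ± 0.08 (adjusted p = 0.989) without it, and Hey1 by -0.18 ± 0.16 (adjusted p = 0.924) and -0.21 ± 0.16 (adjusted p = 0.909).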

How the data were processed

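The deposited main table holds 1 linear intensity per probe for each of 30 arrays, and per the file headers it is the table before normalization. The submitters' processing notes name BeadStudio without its version. From 27.2% to 29.9% of the deposited intensities per array are below 0, so a background had been subtracted. The authors' second table of processed intensities (floored at 50) served as an alternative.

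Background was corrected with normexp (offset 0), followed by log2 and quantile normalization. Probes with 1 gene symbol (20983 of 24611) were kept where they exceeded their array's median on at least 4 of 28 samples, and the brightest probe stood for each gene (9826 genes). Repeat arrays of Dox samples 3 and 4 were averaged. limma 3.58.1 (R 4.3.3; lmFit and eBayes) fitted a mean per group and the replicate number as a block (18 residual degrees of freedom), with Benjamini-Hochberg adjustment over all genes, two-sided. Adjusted p-values are from this model unless the sentence names another fit, and ± after a fold change is its SE. The block follows the pairing by which the 2 groups are defined: deviations of same-numbered samples of 1% O2+DAPT and DAPT correlated at 0.71 to 0.78, against at most 0.62 for other numbers.

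Precision is limited by the number of arrays, which carry no read depth. The mean signal of the 8 arrays was 660 to 862. A limit of background was set for each array at the 98th percentile of its mirrored negative signals (30.1 to 39.8), and 47.7% to 49.6% of probes lay above it. Levels are not compared between probes.

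Genes were named by rule: the 14 largest rises and falls with 4 of 4 pairs of 1 sign and above background in the brighter group, up to 4 called members of each of 35 lists, fixed genes, and called interactions. Other members are named as examples. The lists and members were chosen with earlier results of these data known. The model was tested on simulated data.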

Additional observations from a re-analysis of the deposited data

Results flagged for a closer look

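Among 290 groups of 4 samples examined, 18 (6.21%) held a sample whose gap to the nearest of the others took up most of the group's range, and chance alone flags about 1 in 20 groups. No cause was tested. The 1% O2+DAPT sample 4 was low for Ndrg1 (9.59, the others 10.81 to 11.05), P4ha2 (9.70, the others 10.79 to 10.86), Slc2a1 (14.43, the others 14.79 to 14.84) and Dlx3 (7.84, the others 8.93 to 8.95), and high for Fbxl5 (9.29, the others 8.98 to 9.00). Replicate 4 was also lowest in 1% O2 and in 1% O2+Dox for Ndrg1 (9.86 and 9.19) and P4ha2 (9.91 and 9.93). For Slc2a1 it was lowest in 1% O2 (14.43) but not in 1% O2+Dox (14.62). 1% O2+DAPT sample 2 was low for Slc1a3 (8.08, the others 8.49 to 8.51), Kdm5b (10.23, the others 10.55 to 10.56) and the matrix protein gene Ccn1 (6.15, the others 6.51 to 6.57). 1% O2+DAPT sample 1 was high for the Wnt target Sp5 (10.37, the others 8.52 to 8.72) and for the pluripotency factor Esrrb (13.11, the others 12.98 to 13.00), and sample 3 was high for Ppp1r3c (9.02, the others 8.76 to 8.80). The log2 fold change of Sp5 stayed at 0.56 to 0.69 over the 8 single omissions.

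In the DAPT group, sample 3 was low for Kdm4b (6.50, the others 6.99 to 7.08), the topoisomerase Top2a (11.36, the others 11.74 to 11.76) and the blood factor Tal1 (6.91, the others 7.22 to 7.25), and high for Bnip3l (10.43, the others 9.91 to 9.98). DAPT sample 2 was high for Ndufv3 (13.36, the others 12.77 to 12.83), sample 1 was high for the focal adhesion gene Zyx (13.18, the others 11.87 to 12.07), and sample 4 was low for Hey1 (6.34, the others 6.82 to 6.89). The log2 fold change of Zyx stayed at -0.39 to -0.25 over the 8 single omissions.

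The oxygen effect on Slc2a1 was larger with DAPT than with doxycycline by 0.86 ± 0.10 on the log2 scale (adjusted p = 0.000233 in limma), the single such difference called among 9826 genes.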

How the results depend on the processing

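Against 2060 genes called for 1% O2+DAPT over DAPT, 395 were called with no replicate block, 989 when only the 8 samples entered the fit, 3332 under median scaling, 1177 from replicates 1 and 2 alone and 433 from replicates 3 and 4 alone. Leaving out 1 sample gave 1532 to 2106. The processed values of the authors gave 1715, a larger normexp offset 2161, no filter on dim probes 1581, a stricter one 2089 and the mean of passing probes 2020. The test of the oxygen effect with DAPT against that in N2B27 gave 0 calls, and 0 to 1 with 1 sample left out (Kdm4a without 1% O2 replicate 4). Against that with doxycycline it gave 1, and 2 under median scaling and 2 with the authors' processed values (Ccdc160 joined Slc2a1), 0 from replicates 3 and 4 alone, and 1 from replicates 1 and 2 alone, which was Psmc1. With 1 sample left out it gave 1 to 2, with Ccdc160 added without Dox replicate 4. The DAPT effect under 1% oxygen gave 0, and 1 under median scaling (Lefty1). Without low oxygen it gave 0, and 2 with the authors' processed values (Plaat3 and Tmed3) and 0 to 1 with 1 sample left out (Tmed3 without N2B27 replicate 1). Fbxl5 reversed to 0.0579 (adjusted p = 0.755) with the mean of its probes, which disagree. Of 145 named genes 137 were called, and of these 71 lost their call with no replicate block, 26 with the 8 samples only, 13 with the authors' values and 9 under median scaling. The array chip as a block was not run, as the files used here do not name it. Causes were not tested. About 76.8% of the genes tested were above background on all 8 arrays, and for the others a low level is only a bound.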
